A study of Mus musculus with 8 samples.

Results

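Chromosome 11 was examined in neural precursor cells (NPCs) with and without knockdown (KD) of *Tet3*. It was chosen by measured values, because in the oxBS libraries it had the 5mC difference between *Tet3* KD and control nearest to 0 of all autosomes, together with higher coverage after *Tet3* KD. These oxBS differences and all coverage values are therefore given as descriptions without a test. Its members were all listed CpGs on chromosome 11, 61997 of 757812 in the series (8.18%, the most of any autosome), and they were compared with the 681282 CpGs of the other autosomes.

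The NPCs came from A2lox.cre mouse ES cells, a male line in which an shRNA is inserted at a single site and expressed when doxycycline is added. One group carried a Scrambled control shRNA (shScr) and the other an shRNA against *Tet3* (shTet3), and both received doxycycline at 2 µg/ml for 5 days. Each group had 2 replicates, and its DNA was split for 2 reactions. Bisulphite (BS) leaves 5mC and 5hmC alike as C, whereas oxidative bisulphite (oxBS) leaves 5mC only. The 8 libraries were thus 4 DNA samples read in both ways, so that BS values are not independent of oxBS values. A single shRNA sequence against *Tet3* was used and nothing in the labels says whether replicates were separate cultures, so that the spread between them may be technical. RNA was not measured in these libraries, and neither the *Tet3* level nor the neural identity of the cells was checked here.

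DNA methylation in mammals is placed mainly on the C of CpGs. TET enzymes oxidise 5mC to 5hmC, a step in the removal of the mark. CpG-dense promoters are usually unmethylated and the bodies of genes and intergenic CpGs usually methylated. Reduced representation bisulphite sequencing (RRBS) cuts DNA with MspI at ccgg and so reads mainly CpG-rich fragments. Mouse chromosome 11 is rich in genes, and it holds the Hoxb cluster, the imprinted genes *Zrsr1* and *Grb10*, and many genes of neural development. The number of reads over a chromosome depends on the number of its copies, among other things, and gains of chromosomes 8 and 11 are known from cultured mouse ES cells. Copy number was not tested in these data.

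The sequences show the kind of fragment on which the values rest. They are MspI fragments of the genome build mm9 (plus strand), except for a shorter stretch in Sfi1, around CpGs that passed the test for a difference between the groups in the BS libraries, which were not used to choose the chromosome, and one fragment of an imprinted promoter. Capitals mark CpGs called lower after *Tet3* KD in BS, except in the Sfi1 stretch, where they mark the CpG called higher in BS, and in the Zrsr1 fragment, where they mark CpGs called higher in oxBS.
Gas2l2 promoter, chr11:83242730-83242868: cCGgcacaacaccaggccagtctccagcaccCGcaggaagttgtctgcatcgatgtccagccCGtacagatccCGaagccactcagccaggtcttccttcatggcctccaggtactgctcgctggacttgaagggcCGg
Plek and Cnrip1 shared promoter, chr11:16952186-16952300: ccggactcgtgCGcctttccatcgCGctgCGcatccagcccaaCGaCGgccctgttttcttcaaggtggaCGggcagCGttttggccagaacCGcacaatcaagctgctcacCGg
Hoxb5 promoter, chr11:96163373-96163489: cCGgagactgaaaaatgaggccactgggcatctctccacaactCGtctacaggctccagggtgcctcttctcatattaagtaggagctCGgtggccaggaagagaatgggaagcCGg
Acap1 exon, chr11:69696129-69696315: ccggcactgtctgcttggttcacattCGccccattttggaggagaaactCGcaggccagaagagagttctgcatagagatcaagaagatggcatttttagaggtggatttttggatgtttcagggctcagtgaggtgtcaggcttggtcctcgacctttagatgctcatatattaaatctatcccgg
Sfi1 intron, a stretch around the CpG at 3067617, chr11:3067517-3067718: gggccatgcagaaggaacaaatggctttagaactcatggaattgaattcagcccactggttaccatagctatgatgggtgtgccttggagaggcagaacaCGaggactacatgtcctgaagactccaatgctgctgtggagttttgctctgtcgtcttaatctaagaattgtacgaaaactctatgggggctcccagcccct
Zrsr1 promoter inside Commd1, chr11:22872844-22872994: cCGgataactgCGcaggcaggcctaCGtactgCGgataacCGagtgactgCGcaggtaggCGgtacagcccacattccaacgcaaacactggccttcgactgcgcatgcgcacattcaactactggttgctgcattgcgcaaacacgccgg

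The libraries ranged in depth from 42516767 to 61865967 calls, and a listed CpG had a median coverage of 43 to 54 calls. Levels were means over CpGs with a coverage of 10 or more in the 4 libraries compared. This left 54474 CpGs of chromosome 11 in oxBS and 54193 in BS, and 50467 had this coverage in all 8 libraries. The shScr replicates differed more than the shTet3 replicates did on every autosome, and the chromosome 8 coverage of shScr replicate 1 stood apart, as given with the coverage values.

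On chromosome 11, the mean 5mC level in oxBS was 26.2% and 31.3% with shScr, and 22.7% and 23.1% with shTet3. Both shTet3 libraries were below both shScr libraries. The difference was −5.89 percentage points, or −20.5% of the shScr level. Chromosome 19, the next in order, differed by −6.09 points, and the other autosomes lay between −24.7% and −22.3% of their shScr levels. In BS, the levels of chromosome 11 were 25.6% and 30.2% with shScr and 21.9% and 22.3% with shTet3, again without overlap. The BS difference of −5.79 points (−20.7%) gave *p* = 0.333 in a two-sided exact permutation test over the libraries, the smallest that 2 libraries against 2 can give. Between the shScr replicates there were 5.07 points in oxBS and 4.63 points in BS, almost as much as between the groups. Without shScr replicate 2 the difference of chromosome 11 was −3.35 points in oxBS and −3.47 points in BS, and without shScr replicate 1 it was −8.42 and −8.10 points, so that its size rested on which control replicate was used.

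Measured against the other autosomes of the same library, the spread between replicates was much smaller. In the control NPCs, chromosome 11 was 1.12 and 1.13 percentage points below the other autosomes in oxBS. With shTet3 it lay at −0.0866 and 0.116 points, level with them. The gap to the other autosomes thus changed by 1.14 points (pooled SD 0.101, n = 2 per group). In BS the same values were −1.06 and −1.23 points with shScr and −0.150 and −0.00664 points with shTet3, a change of 1.07 points (pooled SD 0.111, exact permutation *p* = 0.333, the smallest possible). In both kinds of library the groups did not overlap, which also held on other autosomes. Chromosomes 9 and 19 lay apart in the same direction in both, and chromosomes 1, 5, 6, 8 and 18 in the opposite direction. The change of chromosome 11 was the largest in both.

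**Figure D1:**
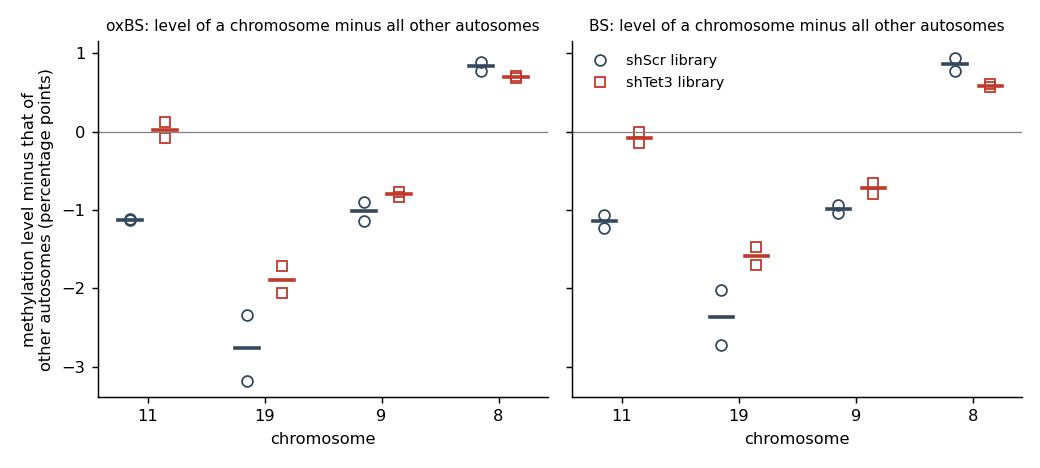
Mean methylation level of chromosomes 11, 19, 9 and 8 minus that of all other autosomes, in percentage points, per library (symbols) with the group mean (bars), for oxBS (left) and BS (right). Chromosome 11 sat below the other autosomes in the 4 shScr libraries and between −0.150 and 0.116 points in the 4 shTet3 libraries.

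Chromosome 19 also moved toward the other autosomes, from −2.34 and −3.18 points to −2.06 and −1.72 points in oxBS, a change of 0.868 points. Chromosome 9, whose shScr level was nearest to that of chromosome 11, changed by 0.215 points. Chromosome 8 changed by −0.137 points. How much a CpG can drop depends on where it starts, so CpGs were grouped into classes of 10 percentage points by their shScr level in the other kind of library, and the classes were weighted alike on every chromosome. With this matching, the oxBS difference of chromosome 11 was −5.88 points against −6.80 points on the other autosomes, and chromosome 7 came next with −6.46 points. Chromosome 19 was then at −6.59 points, close to the other autosomes, whereas chromosome 11 was not.

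The matched gap of chromosome 11 to the other autosomes changed from −0.117 and −0.0412 points with shScr to 0.739 and 0.944 points with shTet3 in oxBS (difference 0.921). In BS it changed from 0.0602 and 0.0415 to 0.839 and 1.03 points (difference 0.881), and chromosome 11 was first of 19 autosomes in both. The near equality in the controls is set by the matching, which used shScr levels of the same DNA, and the values with shTet3 are those that show the gap. The gap was absent from CpGs that started below 10% (−0.237 against −0.208 points in oxBS). In oxBS it was widest between 50% and 60%, with −14.3 points on chromosome 11 and −17.3 points elsewhere, and chromosome 11 had the smaller drop in 9 of 10 classes in each kind of library.

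**Figure D2:**
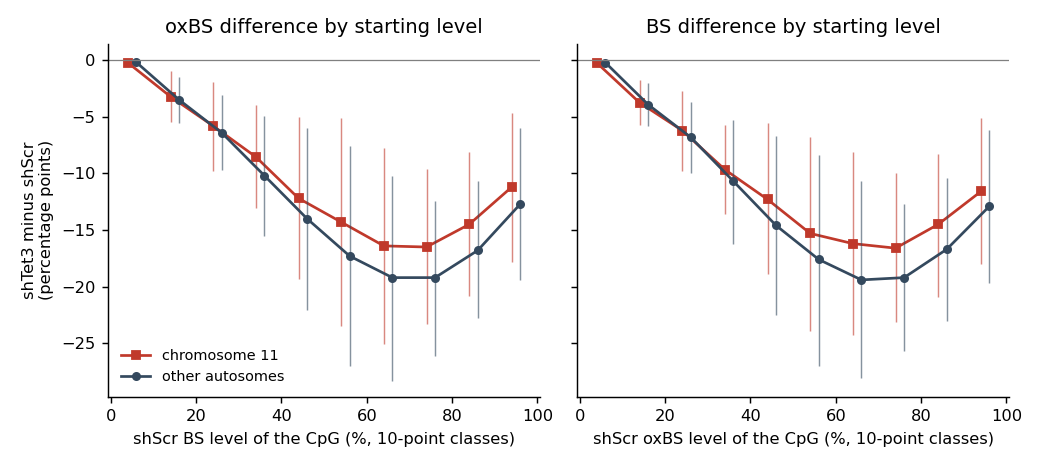
Mean difference of shTet3 minus shScr in percentage points (vertical axis) by the shScr level of the CpG in the other kind of library (horizontal axis), for chromosome 11 and the other autosomes. Thin lines span the smallest to the largest difference between any shTet3 and any shScr library. The line for chromosome 11 runs nearer to 0 in all classes above 10%, by up to 3.17 points in BS.

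The size of the gap depended on how CpGs were weighted. When every read rather than every CpG counted equally, the change of chromosome 11 against the other autosomes was 0.264 points in oxBS and 0.0686 points in BS. Without CpGs in the top 0.1% of coverage of any library, the read-weighted values were 0.882 and 0.700 points. With those CpGs kept and matching on the starting level, they were 0.577 points in both kinds of library.

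By position, without matching on starting level, the smaller drop in points was found in introns and between genes. Intron CpGs of chromosome 11 had an oxBS level of 46.7% and 54.8% with shScr and 40.3% and 40.8% with shTet3, a difference of −10.2 points against −12.2 points in the introns of other autosomes. Intergenic CpGs differed by −11.6 points on chromosome 11 and −14.1 points elsewhere. Both kinds of position started lower on chromosome 11. Introns of the other autosomes were at 49.0% and 57.0% with shScr. Intergenic CpGs were at 45.0% and 54.4% on chromosome 11 and at 47.8% and 58.1% elsewhere. Position was thus not separated from starting level. In promoters (−1 kb to +0.5 kb around transcript starts), which held 49.6% of the chromosome's CpGs, the differences were −1.16 and −1.14 points. Exons also showed nearly equal differences (−9.72 and −9.81 points), although they started higher on chromosome 11, at 49.2% and 58.7% against 46.4% and 54.5%. In BS, the differences were −10.1 against −12.1 points in introns and −11.6 against −14.0 points between genes.

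CpG density, counted as CpGs within 500 bases, gave the same order. The sparsest CpGs, with under 10 CpGs in this span, started alike on chromosome 11 (60.9% and 74.6% in oxBS) and on the other autosomes (61.2% and 75.1%). They ended at 52.6% and 52.9% on chromosome 11 and at 50.5% and 50.4% elsewhere, a difference of −15 against −17.7 points. Among the densest CpGs, with 40 or more, the differences were −0.392 and −0.399 points. The chromosome's median density of 33 CpGs per 500 bases was close to that of the other autosomes (32).

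Single CpGs were then tested by logistic regression on the calls. A CpG that differed by more than 10 percentage points over pooled calls, at a *q* value under 0.01, was called a differentially methylated position (DMP), hypo-DMP if lower with shTet3 and hyper-DMP if higher. In BS, 6171 of 54193 CpGs on chromosome 11 (11.4%) were hypo-DMPs, against 13.8% over all chromosomes, the lowest share of any autosome. The median difference of these hypo-DMPs was −22.9 points. At 89.6% of them the shTet3 replicates were both lower than either shScr replicate, a share like that of the other autosomes (75835 of 84059 BS hypo-DMPs). BS hyper-DMPs numbered 41 (0.0757%, over all chromosomes 0.0621%). The same calls in oxBS are a description, since that contrast chose the chromosome and a low share followed from the choice. The BS libraries hold the same DNA, so that their low share is not independent of the choice either. They gave 6145 hypo-DMPs (11.3%, over all chromosomes 13.9%) and 53 hyper-DMPs (0.0973%, over all 0.0814%). An F test corrected for overdispersion called 0 CpGs in either kind of library. At an unadjusted p under 0.05 it had 742 BS and 783 oxBS hypo-DMPs on chromosome 11. These were 1.37% and 1.44% of its CpGs, against 1.91% and 2.01% on the other autosomes. In simulated data this F test recovered none of the differences. Without shScr replicate 2 the hypo-DMPs of chromosome 11 fell to 2556 in oxBS and 2160 in BS, and without shTet3 replicate 1 to 3646 and 3632. In each of these the share stayed below that of the other autosomes, at 3.99% against 5.12% for BS without shScr replicate 2 and 6.70% against 8.80% for BS without shTet3 replicate 1. Hyper-DMPs rose without shScr replicate 2 in both kinds of library, and without shScr replicate 1 in BS. They rose on the other autosomes too in each of these, so that the rise was not particular to chromosome 11.

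Without any test, both shTet3 replicates were below both shScr replicates at 24.0% of the chromosome's CpGs in BS (26.1% over all chromosomes) and 23.8% in oxBS (26.3% over all). They were above at 2.07% in BS (1.96% over all) and 2.24% in oxBS (2.04% over all). The shares in the upward direction were thus close to the background. Of CpGs tested in both kinds of library, 2548 were hypo-DMPs in both, which was 43.6% of the oxBS and 42.2% of the BS hypo-DMPs of the chromosome. On the other autosomes these shares were 49.9% and 49.1%. Of the hyper-DMPs, 8 were shared, or 15.7% of the oxBS and 21.1% of the BS calls. On the other autosomes 28 were shared, or 6.47% and 8.24%. Most gains called in one kind of library were thus not called in the other, and the higher share on chromosome 11 rests on few CpGs.

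BS minus oxBS, an estimate of 5hmC, was small on chromosome 11. It averaged 0.559 and 0.316 percentage points with shScr, against 0.310 and 0.354 points with shTet3, and the groups overlapped. With shScr, 172 CpGs had BS above oxBS by the same test (0.333%, over all chromosomes 0.330%) and 88 had BS below oxBS (0.171%, over all 0.170%), a direction that 5hmC cannot give. With shTet3, 17 were above (0.0298%, over all 0.0239%) and 3 below (0.00527%, over all 0.0141%). The shScr shares were at the background. Leaving out 1 library moved the shScr count to between 72 and 1601 and the shTet3 count to between 3 and 146, the extremes being those without shScr oxBS replicates 1 and 2 and shTet3 oxBS replicates 1 and 2. Without shScr BS replicate 1 the shScr count was 982, without shScr BS replicate 2 it was 265, and without shTet3 BS replicate 2 the shTet3 count was 84. These counts thus rested on single libraries. With each library left out, the share on the other autosomes moved in the same direction, so that the swings were not particular to chromosome 11.

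Coverage of chromosome 11 was higher with shTet3 in both replicates and both kinds of library. The chromosome took 8.28% and 7.76% of all calls in the shScr BS libraries and 8.24% and 7.77% in the shScr oxBS libraries. With shTet3 it took 8.99% and 8.52% in BS and 9.03% and 8.47% in oxBS. The groups did not overlap. In shTet3 oxBS replicate 1, for example, the median coverage per CpG was 63 on chromosome 11 and 54 on the other autosomes, whereas both were 43 in shScr oxBS replicate 1.

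Each library was scaled by its median coverage and compared with the mean of all 8 libraries CpG by CpG, and the median over chromosome 11 was set against that of the other autosomes. On this log2 scale the shScr libraries were at −0.0465 and −0.0944 in BS and −0.0685 and −0.100 in oxBS. The shTet3 libraries were at 0.110 and 0.0445 in BS and 0.117 and 0.0419 in oxBS. All shTet3 libraries were above all shScr libraries, although shTet3 replicate 1 was higher than shTet3 replicate 2. Chromosomes 6, 8 and 13 had their 4 shTet3 libraries below their 4 shScr libraries, by −0.0263, −0.111 and −0.0363 on average. Only chromosome 14 of the other autosomes had its 4 shTet3 libraries above its 4 shScr libraries, and by less (0.0634 against 0.156 on average). Most of its value came from shScr replicate 1, at −0.0623 in BS and −0.0829 in oxBS, while shScr replicate 2 was at 0.0104 and −0.00330. The X chromosome, of which male cells have a single copy, was lower by 0.132 on average, which came mostly from shTet3 replicate 1 (−0.134 in BS and −0.145 in oxBS, against 0.00115 and 0.0116 in replicate 2).

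**Figure D3:**
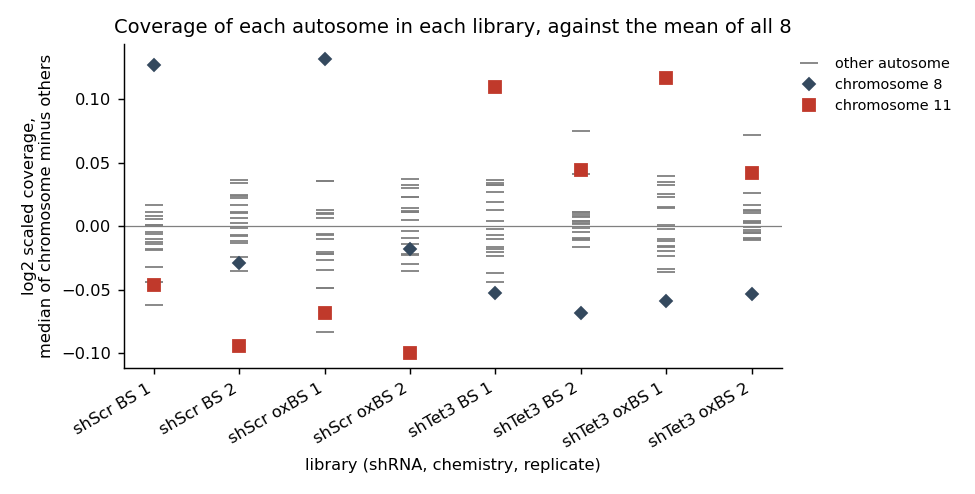
Median log2 coverage of each autosome in each of the 8 libraries, relative to the mean of all libraries and to the other autosomes. Chromosome 11 (squares) lies between −0.100 and −0.0465 in the shScr libraries and between 0.0419 and 0.117 in the shTet3 libraries, and chromosome 8 (diamonds) is high in the libraries of shScr replicate 1.

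As a ratio of shTet3 to shScr, the scaled coverage of chromosome 11 had a median log2 of 0.0590 in oxBS and 0.0913 in BS, where the other autosomes had −0.102 and −0.0522. The difference was 0.161 in oxBS, a 1.12-fold higher coverage, and 0.143 in BS, a 1.10-fold higher coverage. Chromosome 12 followed with 0.0798 in oxBS, and chromosome 14 with 0.0650 in BS. With 1 library left out, the value of chromosome 11 was between 0.123 and 0.197 in oxBS and between 0.114 and 0.184 in BS. Chromosome 8 had a ratio of −0.113 in oxBS, and its coverage was 0.132 in shScr oxBS replicate 1 and −0.0179 in replicate 2, so that most of its ratio came from 1 replicate. The higher coverage of chromosome 11 was present at CpGs of each starting level, with values between 0.139 and 0.168 in oxBS. It was also present at each CpG density (between 0.116 and 0.186). Every class examined thus had it.

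**Figure D4:**
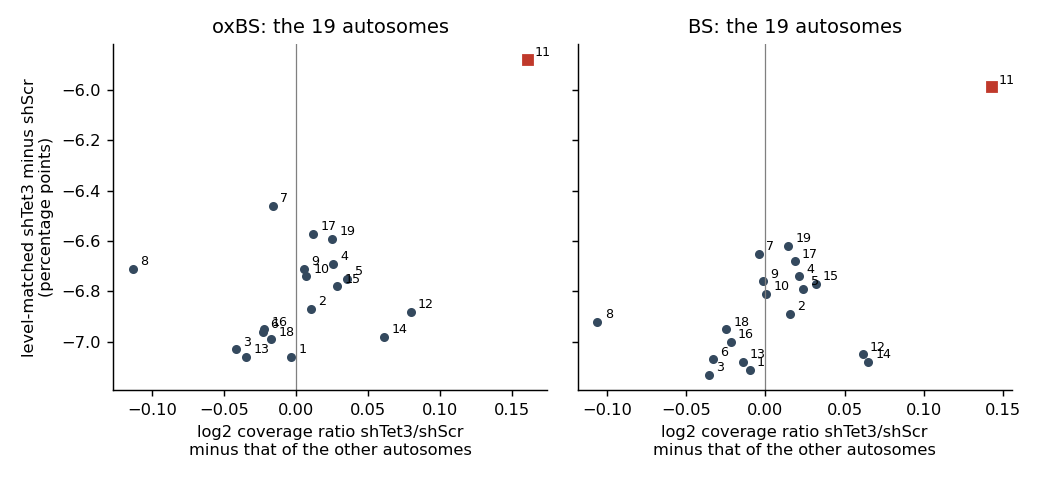
The 19 autosomes by their log2 coverage ratio of shTet3 to shScr relative to the other autosomes (horizontal axis) and their mean difference in methylation matched on starting level, in percentage points (vertical axis), for oxBS and BS. Chromosome 11 is alone at the upper right, with 0.161 and −5.88 in oxBS and 0.143 and −5.99 in BS, while chromosomes 12 and 14 have raised coverage and matched differences of −6.88 and −6.98 points in oxBS.

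Higher coverage and a smaller drop in methylation were both found on chromosome 11. Chromosomes 12 and 14 had coverage ratios of 0.0798 and 0.0613 in oxBS, and their matched differences were −6.88 and −6.98 points. These ratios rested largely on single replicates, since chromosome 14 was at 0.104 and 0.0945 over shScr replicate 1 and at 0.0179 and 0.0339 over shScr replicate 2, and chromosome 12 at 0.123 and 0.117 with shTet3 replicate 2 and at 0.0533 and 0.0286 with shTet3 replicate 1. What part coverage or the number of copies has in the methylation difference was not tested.

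Along the chromosome, the values were read in fixed windows of 1 Mb with at least 20 CpGs. All 114 windows in oxBS and all 113 in BS had a lower mean level with shTet3. In 110 oxBS windows (96.5%, over all autosomes 96.8%) and 109 BS windows (96.5%, over all 96.7%), the shTet3 replicates were both below the shScr replicates, which is the background. Coverage differed from it: the ratio was above that of the other autosomes in 98 oxBS windows (86.0%, over all 45.5%) and in 102 BS windows (90.3%, over all 45.3%). Among windows with 200 or more CpGs it was above in 73 of 76 in oxBS and 74 of 76 in BS, where the other autosomes had 519 of 1017 and 510 of 1022.

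Matched on the starting level of their CpGs, 88 of 111 windows had a smaller drop than CpGs of the other autosomes in oxBS (79.3%, over all autosomes 40.6%), and 92 of 111 in BS (82.9%, over all 40.8%). Windows were not matched on their number of CpGs, with a median of 389 per oxBS window on chromosome 11 and 191 on the other autosomes. The gap was spread along the chromosome rather than carried by a few windows. With the chromosome cut into 3 stretches of equal length, it was 0.614 points in the stretch nearest to the centromere, 0.816 points in the middle and 1.03 points at the far end in oxBS, and 0.598, 0.821 and 0.956 points in BS. The coverage ratio was 0.156, 0.145 and 0.172 in these stretches in oxBS. In the same order, 20 of 33, 34 of 39 and 34 of 39 windows had the smaller drop in oxBS. In BS these were 26 of 33, 33 of 39 and 33 of 39. Across the 111 windows, the coverage ratio and the matched gap had a Pearson correlation of 0.0561 in oxBS and 0.0374 in BS. These are descriptions, since windows share their libraries, and many windows near the centromere held few CpGs. For the plain difference, not matched on starting level, the Pearson correlation with the coverage ratio was 0.493 in oxBS and 0.235 in BS. On the other autosomes it was 0.233 and 0.0491. By ranks (Spearman) the correlations were lower on chromosome 11, at 0.309 and 0.0985, against 0.231 and 0.0396 on the other autosomes. A correlation between windows cannot show a shift shared by the whole chromosome, so that a link of coverage to the gap was not tested.

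**Figure D5:**
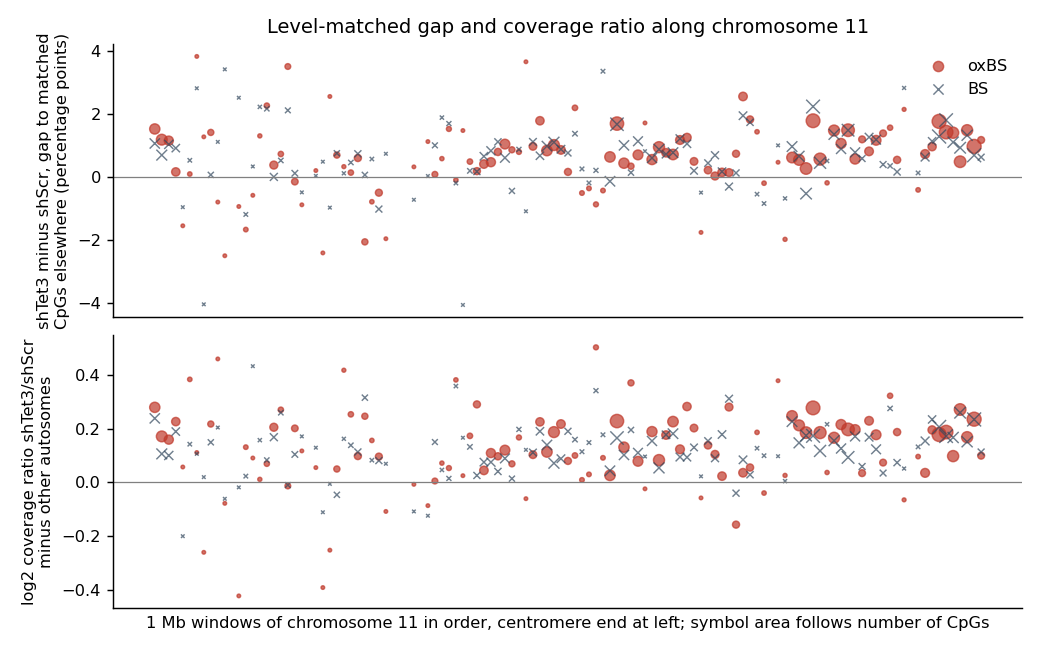
Windows of 1 Mb along chromosome 11 in order, showing the mean difference of shTet3 minus shScr relative to CpGs of the same starting level on other autosomes (top, percentage points) and the log2 coverage ratio relative to the other autosomes (bottom), for oxBS (circles) and BS (crosses), with larger symbols for more CpGs. Most windows are above 0 in both panels, 88 and 96 of 111 in oxBS, and the scatter is widest for windows with few CpGs.

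The plain difference of a window followed its starting level, with a Pearson correlation of −0.924 over the 114 oxBS windows, described only, since the shScr level enters both. The window from 14 to 15 Mb (chr11:14000001-15000000, 26 CpGs, no coding gene) had the largest oxBS difference, at 50.4% and 76.9% for shScr and 40.8% and 41.9% for shTet3 (−22.3 points). Next came chr11:27000001-28000000 (24 CpGs, −21.7 points) and chr11:81000001-82000000 (103 CpGs, −18.5 points), which holds the chemokine genes *Ccl2*, *Ccl7*, *Ccl11*, *Ccl12* and *Ccl8*. These windows had few CpGs and few or no coding genes apart from the chemokine cluster, and their coverage ratios were −0.0311, −0.251 and −0.0527. In BS their differences were −12.6, −14.6 and −18.0 points, and the largest BS difference was in chr11:10000001-11000000 (−20.5 points), so that the order at this end differed between the kinds of library.

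At the other end was chr11:22000001-23000000, at 16.9% and 16.7% for shScr and 16.3% and 15.8% for shTet3 over 264 CpGs (−0.733 points, in BS −1.91 points). It holds the imprinted gene *Zrsr1*, which lies within an intron of *Commd1*. The window after it, chr11:23000001-24000000, started low (4.29% and 5.71%) and differed by −1.38 points, and it holds *Bcl11a*, *Rel* and *Xpo1*. In chr11:86000001-87000000 the difference was −2.23 points, from 11.9% and 14.5% to 10.6% and 11.3%. The highest coverage ratios were 0.440 in chr11:12000001-13000000 (85 CpGs), 0.437 in chr11:66000001-67000000 (202 CpGs) and 0.417 in chr11:30000001-31000000 (139 CpGs). In BS, the ratios of these windows were 0.177, 0.347 and 0.142, so that the oxBS values at this end were not matched in size. The lowest were −0.417, −0.415 and −0.252, in windows with 20, 23 and 29 CpGs. In BS the first of these had too few CpGs, and the others were at −0.0824 and 0.0839, so that these low values were not repeated.

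Promoters of chromosome 11 were called about as often as those of the whole series. Of genes with promoter CpGs tested, 203 of 1086 had a BS hypo-DMP (18.7%, over all chromosomes 18.2%) and 8 a BS hyper-DMP (0.737%, over all 0.688%). In oxBS, 214 of 1084 had a hypo-DMP (19.7%, over all 19.2%) and 9 a hyper-DMP (0.830%, over all 0.947%). These shares were at the background.

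*Gas2l2*, which codes for a protein linking actin and microtubules, had the most BS hypo-DMPs in its promoter, 13 of 19 CpGs. Its promoter level in BS was 46.6% and 66.1% with shScr and 42.0% and 38.7% with shTet3. In oxBS it was 49.5% and 66.3% with shScr and 42.1% and 38.6% with shTet3, and 10 CpGs were called. The shTet3 replicates were below the shScr replicates in both, and the distance to shScr replicate 1 was small in BS. The fragment printed above held 5 of the BS calls among 7 CpGs.

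*Plek*, coding for the protein kinase C substrate pleckstrin, and *Cnrip1*, coding for a cannabinoid receptor interacting protein, share the same 16 promoter CpGs and cannot be told apart by them. Of these CpGs, 9 were hypo-DMPs in BS and 12 in oxBS. The BS levels were 34.0% and 45.1% with shScr and 26.2% and 21.6% with shTet3. In oxBS they were 40.4% and 37.5% with shScr and 20.4% and 19% with shTet3, and the KD replicates were well below both controls. The 115-base fragment printed for this promoter held 9 BS hypo-DMPs among 12 CpGs.

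Among the next promoters, *Hormad2*, a gene of meiotic chromosome axes, had 8 BS hypo-DMPs among 14 CpGs. Its BS levels were 67.1% and 80.9% with shScr and 42.1% and 61.8% with shTet3. *Gpr179*, a receptor of retinal bipolar cells, had 7 of 10, with 70.6% and 84.8% against 63.3% and 42.6%. *Fscn2*, an actin-bundling protein of the retina, had 7 of 11, with 73.7% and 86.6% against 62.7% and 57.5%. These promoters were mostly methylated in the control NPCs. Others had low promoter means with calls at a part of their CpGs, namely *Sdk2* (cell adhesion, 9 of 68), *Sept9* (a septin of the cytoskeleton, 9 of 89) and *Slc16a3* (a lactate transporter, 8 of 60).

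BS hyper-DMPs were single CpGs, 1 in each of 8 promoters. The 5 described by rule were in the promoters of *4931440F15Rik*, *Rab11fip4*, *Gm9945*, *Ankrd43* and *E130309D14Rik*. None of these promoters had a hyper-DMP in oxBS, and their mean BS differences were between −2.20 and 0.380 points.

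The Hoxb genes code for homeodomain proteins that set position along the body axis. Of 7 covered Hoxb promoters, 3 had a hypo-DMP in BS and 2 in oxBS, and none a hyper-DMP. Over all genes tested, 18.2% had a promoter hypo-DMP in BS and 19.2% in oxBS, the background for this and the following lists. The lists were not matched to it on the number of promoter CpGs or on the starting level. A share above the background is thus a description and not a tested enrichment. All 4 promoter CpGs of *Hoxb5* were BS hypo-DMPs, all in the printed fragment, at 75.5% and 74.3% for shScr and 37.3% and 34.8% for shTet3. In oxBS the *Hoxb5* levels were 74.0% and 50% with shScr and 39.4% and 34.5% with shTet3, and 1 CpG was called. *Hoxb1* had 3 BS hypo-DMPs of 4, with 66.2% and 49.5% against 36.8% and 45.0%. The groups did not overlap in either gene, but the *Hoxb1* groups were close. *Hoxb7* had 1 of 14, at levels below 5% in BS. The median BS difference of the covered Hoxb promoters was −1.07 points, against −0.110 over the coding genes of chromosome 11.

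The developmental transcription factors had a hypo-DMP in 9 of 20 covered promoters in BS and in 9 in oxBS, and a hyper-DMP in 0 and 1, beside the background of 18.2% and 19.2% for hypo-DMPs. *Neurod2*, a factor of neuronal differentiation, had 5 of 13 in BS and 9 in oxBS. Its oxBS levels were 54.2% and 37.3% with shScr and 32.2% and 27.2% with shTet3, and its BS levels 43.6% and 35.4% against 33.6% and 24.7%. *Hand1*, a factor of heart and trophoblast, had 3 of 7 BS hypo-DMPs, with 47.5% and 42.4% against 31.0% and 22.0%. The groups did not overlap in either gene. *Lhx1* had 4 of 70, *Tlx3* 2 of 80 and *Rara* 2 of 71 in BS, at promoter means under 13%, and *Foxj1*, *Ikzf3* and *Hes7* had 1 each. *Tbx4* (5 CpGs), *Foxi1* (4) and *Sox9* (1) had hypo-DMPs in oxBS and none in BS, a difference that was not tested. *Dlx4* had a hyper-DMP in oxBS while its promoter mean was lower, 7.05% and 6.14% with shTet3 against 9.65% and 10.2%. The median BS difference of this list was −2.49 points.

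Among the genes of neurotransmitter receptors and the synapse, 4 of 8 covered promoters had a hypo-DMP in each kind of library (over all genes 18.2% in BS and 19.2% in oxBS). *Grin2c*, an NMDA receptor subunit, had 9 of 46 in BS and 3 in oxBS, with BS levels of 12.6% and 19% against 9.35% and 10.9%. *Aatk*, a kinase of neurons, had 3 of 20 in both, with BS levels of 30.3% and 36.1% against 23.9% and 23.6%. *Slc6a4*, the serotonin transporter, had 1 hypo-DMP and 1 hyper-DMP in BS. *Nptx1* had 1 hypo-DMP in BS and 1 hyper-DMP in oxBS, and *Glra1* 1 hypo-DMP in oxBS. In the list of neuronal and glial structure and signalling, 3 of 9 promoters had a BS hypo-DMP (*Gfap*, *Nefh* and *Rac3*) and 1 an oxBS hypo-DMP (*Gfap*), beside the same background shares of 18.2% and 19.2%. *Gfap*, the filament protein of astrocytes, had BS levels of 63.4% and 91.9% with shScr and 51.6% and 57.5% with shTet3. *Rac3* also had a hyper-DMP in oxBS.

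Of the Wnt ligands, *Wnt3* had 2 hypo-DMPs in BS and 9 in oxBS among 38 CpGs in oxBS, and *Wnt3a* 1 in BS. In *Wnt3* the oxBS levels were 26.9% and 17.6% with shScr and 14.8% and 18.3% with shTet3, which overlapped. *Wnt3a* had 1 hyper-DMP in oxBS, and *Wnt9a* and *Wnt9b* had no call. The chromatin regulators had a hypo-DMP in 2 of 11 promoters, *Cbx8*, a Polycomb protein, and *Hdac5*, a histone deacetylase, each with 4 in BS and 2 in oxBS. This count is near the background of 18.2% in BS and 19.2% in oxBS. The list of cell cycle and genome maintenance had 0 of 8 in BS and 1 in oxBS (*Rad51c*, 1 CpG). Median BS differences were −1.92 points for the Wnt ligands, −2.69 for the synapse list, −0.117 for the neuronal and glial list, 0.00164 for the chromatin regulators and 0.144 for the cell cycle list, against −0.126 over all coding genes.

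Imprinted promoters carry methylation on 1 parental copy, so that a level near 50% is usual where CpGs of both copies are read. *Zrsr1*, expressed from the paternal copy, had 7 hyper-DMPs in oxBS and 0 in BS over its 43 promoter CpGs. Its oxBS levels were 26.5% and 7.20% with shScr and 24.7% and 21.4% with shTet3. In BS they were 24.3% and 10.9% with shScr and 17.7% and 19.8% with shTet3. The shScr replicates bracketed the shTet3 replicates in both kinds of library, and the low value was that of shScr replicate 2. Over the 14 CpGs of the printed fragment, with 7 calls, the oxBS levels were 21.4% and 7.24% against 29.1% and 20.9%. *Grb10*, an imprinted adaptor of growth factor receptors, had 4 hypo-DMPs in BS and 5 in oxBS among 121 and 122 promoter CpGs, with oxBS levels of 18.0% and 14.0% against 13.5% and 14.4%.

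The CpGs with the largest BS differences were in genes or between them, not in promoters. At position 69696178, in an exon of *Acap1*, a regulator of Arf GTPases, the BS level was 83.3% and 90.0% with shScr and 22.2% and 20% with shTet3 (−64.0 points pooled, *q* = 1.4e-06 by logistic regression with Benjamini-Hochberg adjustment). In oxBS, the same CpG had 44.4% and 79.2% with shScr and 60.5% and 66.7% with shTet3. The BS difference was thus absent in oxBS of the same DNA. A CpG at 107628592 in an intron of *Cacng4*, a subunit of AMPA receptors, had 93.3% and 85.0% against 37.0% and 19.2% in BS. In oxBS it had 33.3% and 62.5% with shScr and 62.1% and 33.3% with shTet3, on too few calls to be tested. A CpG at 93833496 between genes had 92.9% and 100% against 31.2% and 41.7% in BS. In oxBS it had 76.9% and 91.7% against 62.5% and 73.7% and was not called. The coverage of these CpGs was between 6 and 38 calls, so that a single value is imprecise.

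The largest BS gains were at 3067617 in an intron of *Sfi1*, a centrosome protein, 84729020 in an intron of *Znhit3* and 67882884 in an intron of *Stx8*, a syntaxin. The *Sfi1* CpG had 36.4% and 30% with shScr and 88.2% and 58.3% with shTet3 in BS, on 11, 20, 17 and 12 calls. In oxBS it had 90.0% and 55.0% against 20% and 44.2%, the opposite order, on 10, 20, 5 and 43 calls. The *Znhit3* CpG rose in BS from 0% and 20% to 32.1% and 63.4%, and in oxBS it had 28.6% and 37.5% against 37.8% and 14.3%. The *Stx8* CpG rose in BS from 0% and 20% to 52.4% and 54.2%. None of the 3 was a hyper-DMP in oxBS, where the *Sfi1* and *Stx8* CpGs had too few calls to be tested.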

How the data were processed

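oxRRBS libraries of A2lox.cre NPCs (8, from 2 shScr and 2 shTet3 replicates, 100 ng of DNA each) were assigned to groups by their labels. Per the methods and the submitters' processing notes, the authors trimmed reads with Trim Galore, aligned them with Bismark to mm9 and loaded calls into methylKit. For each CpG they deposited the coverage as an unnormalized count of calls, and 2 columns with the percent that read C and T. Percent times coverage gave whole methylated calls, and these counts were used. The deposited lists held only CpGs with a coverage of 5 or more in every library.

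CpGs with a coverage of 10 or more in the libraries compared were kept. Levels were unweighted means over CpGs, with the SD over 2 libraries, and two-sided exact permutation tests compared them. DMPs came from a logistic likelihood ratio test per CpG without overdispersion, adjusted by Benjamini-Hochberg over the CpGs of all chromosomes. No molecular identifiers were used, so that reads may be copies of one molecule and the tests per CpG cover counting error only. Coverage was divided by the median of its library. Windows were 1 Mb, with 20 or more CpGs. Promoters were those of coding transcripts (GENCODE vM1, which uses mm9). The tests per CpG were checked on simulated data. Python 3.11.15, numpy 2.4.6, scipy 1.17.1 and pandas 2.3.3 were used.

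The members, gene lists and tests were chosen with earlier results of these data known. The text names the 3 windows at each end of the oxBS difference and of the coverage ratio, the 3 CpGs with the largest BS difference in each direction and both replicates beyond the others, the 10 promoters with the most BS hypo-DMPs, the 5 with the most BS hyper-DMPs, and list members with a DMP, of which some are not reported here. The printed promoter fragments were picked from these after their values were seen. Alternatives were other coverage minimums (5 and 20), read weights, scalings, window sizes, tests and left-out replicates.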

Additional observations from a re-analysis of the deposited data

How the results depend on the processing

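No mean difference or coverage ratio of chromosome 11 changed direction in any of the alternatives run, while single windows did. Counts of calls have no direction of their own. For CpGs with BS above oxBS in shScr, the share was 0.333% against 0.330% on the other autosomes. With the replicate as a block it was 0.320% against 0.323%, the other order. Without oxBS replicate 1 the share was also below that of the other autosomes, with shScr and with shTet3. The mean differences of chromosome 11, the matched gaps and the coverage ratio relative to the other autosomes kept their sign throughout. In BS, the permutation test over 2 libraries against 2 cannot pass a threshold, so that its p says nothing of stability. The change of chromosome 11 against the other autosomes in oxBS was 0.946 points at a coverage minimum of 20, 0.264 with read weights (0.0686 in BS) and 0.882 with read weights and without CpGs in the top 0.1% of coverage (chosen after seeing the data). With read weights the matched gap, also chosen after seeing the data, was 0.577 points in oxBS and in BS. The log2 coverage ratio of chromosome 11 (0.0590 in oxBS, 0.0913 in BS) was 0.201 and 0.210 when scaled by total calls, 0.120 and 0.121 at a coverage minimum of 5, and 0.161 and 0.143 minus the ratio of the other autosomes (chosen after seeing the data). With 1 replicate left out it was between 0.0582 and 0.109 in oxBS and between 0.0532 and 0.138 in BS. In windows of 2 Mb, 60 of 60 had lower 5mC, at a coverage minimum of 20 it was 108 of 109 windows of 1 Mb, and without shScr oxBS replicate 2 it was 113 of 114.

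The F test corrected for overdispersion called 0 CpGs in every comparison. It also recovered none of the simulated differences, so that it says nothing of stability here. Unadjusted, with a p under 0.05, it had 783 hypo-DMPs in oxBS and 742 in BS on chromosome 11 (1.44% and 1.37%, against 2.01% and 1.91% on the other autosomes), 3 and 0 hyper-DMPs, and 11 and 10 CpGs with BS above oxBS. With both replicates beyond both of the other group there were 35 oxBS hyper-DMPs. With 1 replicate left out, hypo-DMPs were between 2556 and 8371 in oxBS and between 2160 and 8272 in BS, hyper-DMPs between 57 and 311 and between 41 and 213, and CpGs with BS above oxBS between 72 and 1601 with shScr and between 3 and 146 with shTet3.

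By their labels, replicates of shScr and shTet3 share only a number, and their methylation deviations were nearly uncorrelated (−0.0361 in oxBS and −0.0282 in BS over all chromosomes). Coverage did go with the number. The chromosome 11 share of BS calls was higher in replicate 1 of both groups, at 8.28% against 7.76% with shScr and 8.99% against 8.52% with shTet3. With the replicate block, hypo-DMPs on chromosome 11 were 6349 in oxBS and 6349 in BS, hyper-DMPs 57 and 38, and CpGs with BS above oxBS 165 and 16, and the mean differences (−5.89, −5.79, 1.14 and 1.07) and coverage ratios (0.0590 and 0.0913) were as without it.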
